A study of Mus musculus with 6 samples.

Results

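The genes examined were 8 isoforms of the heavy and light chains of sarcomeric myosin: the heavy chains Myh6, Myh7 and Myh7b, the regulatory light chains Myl2 and Myl7, and the essential light chains Myl3, Myl4 and Myl1. They were chosen by name, as the rows of the deposited table of counts that carry these symbols, and made up 8 of its 23337 genes. All 8 passed the filter on low counts, as did 14587 genes in all. The RNA came from cardiomyocytes of wild-type mice injected with an adeno-associated virus (AAV) on postnatal day 1 and analysed at 4 weeks. The virus carried GFP as the control (AAV-GFP), XBP1S (AAV-XBP1S) or ATF6N (AAV-ATF6N), with 2 libraries in each group, and each comparison asks what an unfolded protein response factor changes in heart muscle cells. XBP1S stands for spliced XBP1, which is the active protein, and ATF6N for the part of ATF6 that enters the nucleus once the full protein is cut. The labels do not give the promoter of the virus, the sex of the mice, the chamber the cells came from, or whether a library held the cells of 1 mouse or several. The sample labels write XBP1 and ATF6 where the description of the design writes XBP1S and ATF6N. Nothing in the labels says that the 2 libraries of a group came from separate animals, so p-values measure the spread between these libraries, which may be technical.

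Myosin II is the motor of the thick filament. Each molecule has a pair of heavy chains, whose heads split ATP and pull on actin, and each head carries a regulatory and an essential light chain on its lever arm. The heart switches isoforms with development, chamber and load: in the mouse ventricle the fast alpha heavy chain (Myh6) replaces the slower beta heavy chain (Myh7) after birth, and a return of Myh7 is a classic sign of a stressed adult mouse heart. Myl2 and Myl3 are the ventricular light chains, Myl7 and Myl4 the atrial ones, and Myl4 is also made in the fetal ventricle. Myl1 is the essential light chain of fast skeletal muscle, and Myh7b is an ancient slow-type heavy chain gene expressed at a low level in heart.

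The positions here span the exons listed with the deposited counts, on mm10, which is the build GRCm38. Myh6 (chr14:54941921-54966607) and Myh7 (chr14:54970688-54994549) lie side by side on the minus strand of chromosome 14. Myh7b is at chr2:155611212-155634307 on the plus strand, Myl1 at chr1:66924296-66945056 on the minus strand, Myl2 at chr5:122100980-122106854 on the plus strand and Myl3 at chr9:110763681-110769794 on the plus strand. Myl4 (chr11:104550663-104587219, plus strand) and Myl7 (chr11:5896637-5898782, minus strand) share chromosome 11 but are far apart. The exon lengths in the table of counts fell into separate ranges, from 6054 to 6163 bases for the heavy chains and from 590 to 1110 bases for the light chains.

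Each of the heavy chain genes hosts a microRNA of the family known for helping to set the balance of heavy chains. Mir208a lies in intron 29 of Myh6, Mir208b in intron 31 of Myh7 and Mir499 in intron 19 of Myh7b. The mature sequences, from RefSeq on GRCm38.p6, are shown because they tie the heavy chain genes together. Capitals mark the seed, bases 2 to 8, the part that pairs with a target.
mmu-miR-208a-3p: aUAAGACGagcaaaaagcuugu
mmu-miR-208b-3p: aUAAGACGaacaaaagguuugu
mmu-miR-499-5p: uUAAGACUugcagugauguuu
Counting from 1 at the 5′ end, miR-208a-3p and miR-208b-3p differed by G10A, A16G and C18U, all outside the seed. They share the seed UAAGACG, while that of miR-499-5p is UAAGACU. Libraries of polyadenylated RNA do not measure these mature forms, and the few reads on the rows of the hairpins lie within introns of the hosts.

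Promoters are printed for the members on which the comparisons below turn: Myl7, the member whose level changed most, and Myh7b, the member with the smallest p in AAV-XBP1S against AAV-GFP. Each runs from 250 bases before to 50 bases after the start site, 5′ to 3′ on the strand of the gene, from RefSeq on GRCm38.p6. All 8 members matched that table, with 10 promoters between them. In the Myl7 promoter (chr11:5898733-5899032, minus strand) capitals mark a CArG box, the element bound by serum response factor. In the Myh7b promoter (chr2:155610993-155611292, plus strand) capitals mark matches to ACGTG, the core of the element through which XBP1 acts, and to CCACG, a core letter string of the ER stress element, on either strand.
Myl7 promoter: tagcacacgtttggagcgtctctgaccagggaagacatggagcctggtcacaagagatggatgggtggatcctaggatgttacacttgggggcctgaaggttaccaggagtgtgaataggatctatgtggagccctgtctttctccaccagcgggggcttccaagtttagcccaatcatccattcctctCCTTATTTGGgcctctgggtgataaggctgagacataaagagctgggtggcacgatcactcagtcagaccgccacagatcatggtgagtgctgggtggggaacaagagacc
Myh7b promoter: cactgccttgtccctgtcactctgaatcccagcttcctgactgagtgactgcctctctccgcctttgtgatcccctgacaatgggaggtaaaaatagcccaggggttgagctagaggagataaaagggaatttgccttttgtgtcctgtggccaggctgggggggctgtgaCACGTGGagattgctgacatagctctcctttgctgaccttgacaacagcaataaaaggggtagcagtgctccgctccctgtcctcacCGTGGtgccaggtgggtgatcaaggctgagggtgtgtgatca
Of the 32851 promoters in the table, 1.63% held a CArG box, 19.6% ACGTG and 32.8% CCACG, on either strand. The CArG box of Myl7 began at base -61 from the start site, and Myl3 held one at -85. The first run of capitals in Myh7b began at -79. It holds ACGTG on both strands and CCACG on the minus strand, and these matches overlap. The second run began at 8 bases after the start site and is CCACG on the minus strand. ACGTG also matched the Myl7 promoter at -245, left in lower case. CCACG also matched Myh7 in 3 places and Myl4 once, and ACGTG matched no other member. The longer motifs TGACGTGG, the ER stress element (CCAAT and CCACG with 9 bases between) and its second form (ATTGG and CCACG with 1 base between), held by 0.676%, 0.119% and 0.0365% of promoters, and the MEF2 site, held by 3.19%, matched none of the 10. TATAAA, held by 13.6%, matched promoters of Myl1, Myl2 and Myh6, and AGATAA, held by 11.2%, matched promoters of Myh7b and Myl2. The Myl2 matches lie in windows at chr5:122092939-122093238 (TATAAA) and chr5:122092474-122092773 (AGATAA). Both windows are well upstream of the exons counted for Myl2, which start at 122100980. A match describes the letters of these windows and is not evidence of binding.

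Depth was high. The libraries held 67702482 to 112049342 counts. A level of 3 counts was 0.0305 to 0.0459 CPM, that is counts scaled to a common library size after TMM adjustment. Library AAV-GFP 1 stood apart: Rn45s, a ribosomal RNA precursor gene, took 0.337% of its counts and 0.0319% to 0.130% of the others, and its short genes were high. Among the 1123 tested genes with under 1 kb of exon, the median log2 deviation from a gene's own mean over the 6 libraries was 0.758 in AAV-GFP 1, 0.27 in AAV-XBP1S 1, and from -0.296 to -0.206 in the other 4. Among the 2569 genes of 5 kb and over it was -0.316 in AAV-GFP 1 and 0.222 and 0.165 in the AAV-ATF6N libraries. This matters here because heavy chains are long and light chains short. Libraries of a group also differed to unlike degrees: the median absolute log2 difference between the 2 libraries over the tested genes was 0.576 in AAV-GFP, 0.376 in AAV-XBP1S and 0.127 in AAV-ATF6N. The AAV-ATF6N libraries were still farther apart than counting error gives (median chi-square of 2.53 over 1612 genes), and were kept as 2.

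In every library the isoforms of adult mouse ventricle led: Myl3, Myl2 and Myh6 were each at or above 3782 RPKM (CPM per kilobase of exon) and the other 5 members at or below 94.2 RPKM. The order by mean RPKM over the 6 libraries was Myl3 (9317), Myl2 (7695), Myh6 (7307), Myh7 (61.3), Myl1 (41.8), Myl7 (30.6), Myl4 (15.0) and Myh7b (8.58). The ranges over libraries of Myl3, Myl2 and Myh6 overlapped (5958 to 15770, 5411 to 14856 and 3782 to 10950). Within each of the 6 libraries Myl3 was above Myl2. The place of Myh6 changed: it was below both in AAV-GFP 1 (3782) and above both in AAV-ATF6N 1 (10950). Ranges also overlapped for Myh7, Myl1 and Myl7 (35.4 to 94.2, 30.4 to 57.9 and 0.519 to 75.9). So did those of Myl4 and Myh7b (6.04 to 19.8 and 5.02 to 15.8). The order inside these 2 sets changed between libraries. The range of Myl7 also covered those of Myl4 and Myh7b. Myl7 was the lowest member in both AAV-ATF6N libraries, at 0.710 and 0.519 RPKM. The 8 genes together took 4.13% and 5.29% of all counts in AAV-GFP, 4.42% and 6.11% with XBP1S and 7.50% and 7.36% with ATF6N. Myh6 alone took 2.02% to 6.44%.

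**Figure D1:**
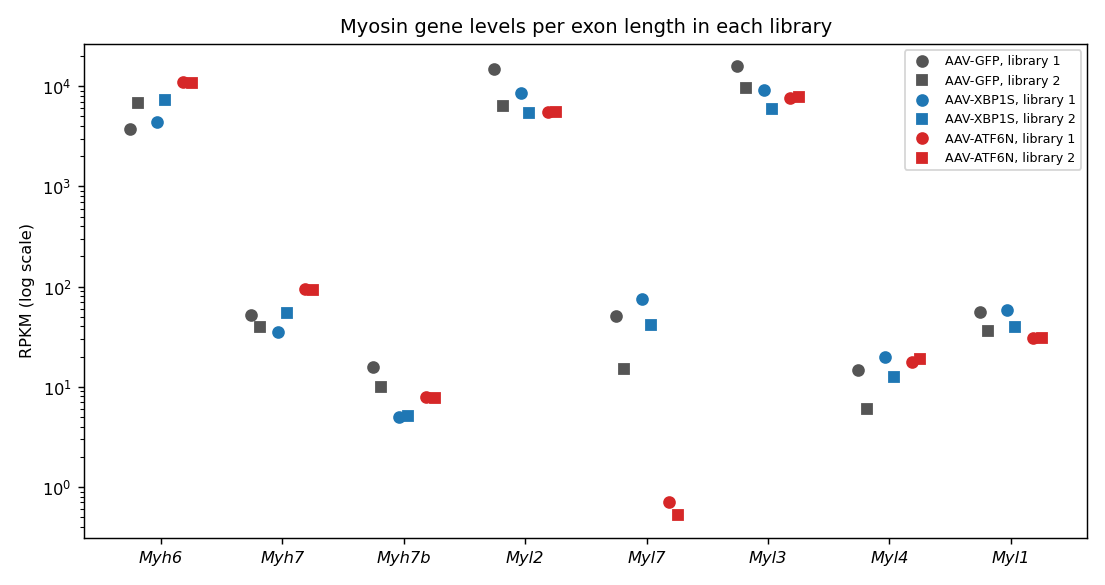
RPKM of the 8 myosin genes on a log axis, 1 point per library; circles and squares are libraries 1 and 2 of AAV-GFP (grey), AAV-XBP1S (blue) and AAV-ATF6N (red). Myl3, Myl2 and Myh6 stay at or above 3782 RPKM in all 6 libraries, and Myl7 falls to 0.710 and 0.519 RPKM in AAV-ATF6N.

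Myl7, the atrial regulatory light chain, fell in AAV-ATF6N cardiomyocytes, and no other member passed the test of edgeR in any comparison, where 0.226% to 0.514% of all tested genes were called. It had 29.7 and 8.82 CPM in the AAV-GFP libraries, 44.8 and 24.3 CPM in AAV-XBP1S, and 0.419 and 0.306 CPM in AAV-ATF6N, which are 34 and 20 reads. Both AAV-ATF6N libraries lay far below the other 4, and the AAV-GFP and AAV-XBP1S libraries overlapped. Mean CPM was 53.1-fold lower in AAV-ATF6N (0.363 ± 0.080, SD, n = 2) than in AAV-GFP (19.2 ± 14.7, SD, n = 2). In the quasi-likelihood test of edgeR, where p-values were adjusted by Benjamini and Hochberg's method over the genes tested and 0.05 was the threshold, its log2 fold change was -5.72 (SE 0.72, adjusted p = 0.0357). Against AAV-XBP1S the mean was 95.3-fold lower (log2 fold change -6.56, SE 0.74, edgeR adjusted p = 0.0399). In the authors' deposited table, from a fit of their own, the log2 fold change against AAV-GFP was -5.717, with an adjusted p of 1.774e-23.

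The call on Myl7 rests on few libraries. Against AAV-GFP the adjusted p in edgeR was 0.107 without AAV-XBP1S 1, 0.104 without AAV-XBP1S 2, 0.215 without AAV-ATF6N 1 and 0.271 without AAV-ATF6N 2, with log2 fold changes from -5.97 to -5.52. It was 0.132 in a fit to only the 4 libraries compared and 0.220 with the AAV-ATF6N libraries summed to 1. Without AAV-GFP 1, the library that stood apart, the log2 fold change was -4.59 (edgeR adjusted p = 0.0134), and without AAV-GFP 2 it was -6.32 (edgeR adjusted p = 0.00487). Against AAV-XBP1S the edgeR adjusted p was 0.358 without AAV-XBP1S 1, 0.277 without AAV-XBP1S 2, 0.258 without AAV-ATF6N 1, 0.275 without AAV-ATF6N 2 and 0.226 with the latter pair summed. In DESeq2 both comparisons passed (adjusted p = 1.68e-20 and 3.59e-27).

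Some other genes known for atrial muscle were low in the same libraries, and others were not. Sln, the atrial calcium pump inhibitor sarcolipin, had 8.54 and 2.33 CPM in AAV-GFP, 14.02 and 8.09 with XBP1S and 0.173 and 0.153 with ATF6N. Its log2 fold change was -5.05 against AAV-GFP (edgeR adjusted p = 0.0529) and -6.07 against AAV-XBP1S (edgeR adjusted p = 0.0517), just outside the threshold both times. In DESeq2 both passed (adjusted p = 3.78e-12 and 9.97e-18), and without AAV-GFP 1 the value against AAV-GFP was -3.82 (edgeR adjusted p = 0.0275). Mybphl, an atrial relative of myosin binding protein C, had 4.28 and 0.828 CPM in AAV-GFP, 5.83 and 3.43 with XBP1S and 0.407 and 0.214 with ATF6N (log2 fold change -3.03, edgeR adjusted p = 0.245 against AAV-GFP). For both genes the AAV-ATF6N libraries were the lowest and did not overlap the others. Nppa, the atrial natriuretic peptide that stressed ventricles also make, went the other way: it had 229 and 101 CPM in AAV-GFP, 465 and 301 with XBP1S and 2184 and 2340 with ATF6N, and it rose against AAV-GFP (log2 fold change 3.78, edgeR adjusted p = 0.0298). That call was lost without AAV-XBP1S 1 (edgeR adjusted p = 0.0863), AAV-XBP1S 2 (0.0898), AAV-ATF6N 1 (0.113) or AAV-ATF6N 2 (0.111), at log2 fold changes of 3.73 to 3.83.

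Of the 12 atrial markers on the list, 11 were tested. In AAV-ATF6N against AAV-GFP 1 rose, 0 fell, and 7 had values below 0 with a median log2 fold change of -0.31. The other 4 were above 0: Nppa, Gja5 (1.17, edgeR adjusted p = 0.378), Tbx20 (0.60, edgeR adjusted p = 0.348) and Kcnj3 (0.53, edgeR adjusted p = 0.595). Tbx20 also stands on the list of regulators of myosin isoform choice, so it is a weak marker of atrial cells. Mybphl is not on this list. In AAV-XBP1S against AAV-GFP 0 passed the test (median 0.29, with Dkk3 at 1.17 and an edgeR adjusted p of 0.237 closest to it), and likewise in AAV-ATF6N against AAV-XBP1S (median -0.44). The summed level of the list is mostly Nppa and ran from 194 to 344 CPM in AAV-GFP, 393 to 560 in AAV-XBP1S and 2295 to 2445 in AAV-ATF6N. Bmp10, an atrial growth factor, was at 0 in 4 libraries and at most at 0.452 CPM. Of the 10 ventricular markers, such as Fhl2 and Lbh, 0 passed the test in the 3 comparisons, with medians of -0.13, -0.02 and 0.13. In these bulk libraries, fewer atrial cells and less Myl7 RNA per cell cannot be told apart.

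Genes of the sex chromosomes were also unevenly spread over the groups. They were examined after Xist, the RNA of the inactive X chromosome, came out as the gene whose log2 CPM was most like that of Myl7 over the 6 libraries (Pearson r = 0.9986, n = 6, of 7606 genes with a mean of at least 10 CPM), followed by Ifit3 (r = 0.9968) and Tm4sf1 (r = 0.9958). Xist had 24.6 and 7.89 CPM in AAV-GFP, 43.1 and 20.2 with XBP1S and 0.197 and 0.0919 with ATF6N. Ddx3y, a gene of the Y chromosome, had 11.6 and 21.0 CPM in AAV-GFP, 0.0215 and 0 with XBP1S and 94.0 and 89.7 with ATF6N. Eif2s3y, Kdm5d and Uty, also on the Y chromosome, were at 0 in both AAV-XBP1S libraries and highest in AAV-ATF6N. Y chromosome reads and Xist reads thus both appeared in AAV-GFP, nearly only Xist in AAV-XBP1S and nearly only Y chromosome reads in AAV-ATF6N. The treatment and the sex of the animals behind the libraries cannot be told apart for Myl7 or for any other member.

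**Figure D2:**
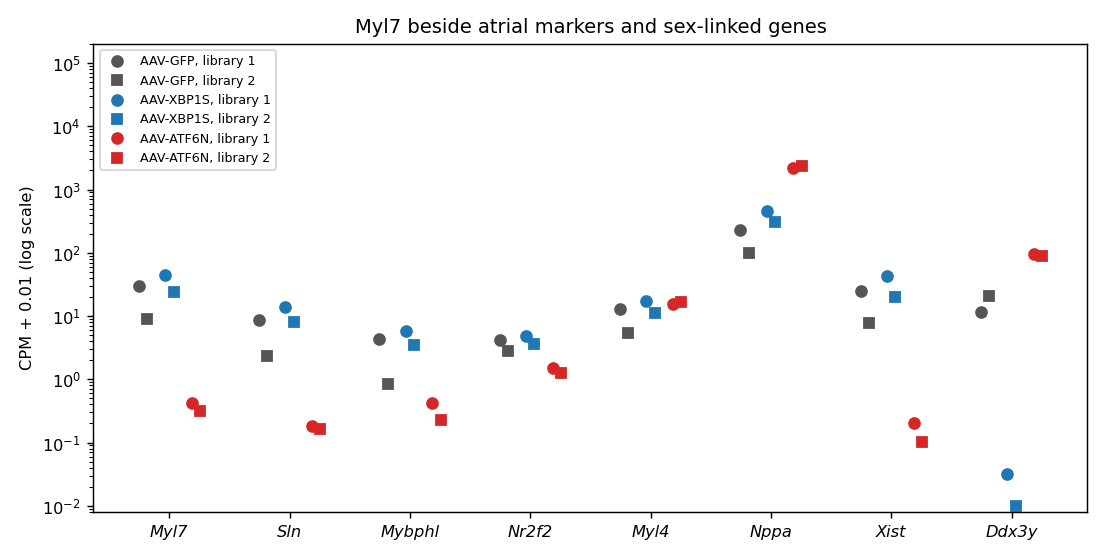
CPM plus 0.01 on a log axis for Myl7, the atrial genes Sln, Mybphl and Nr2f2, the light chain Myl4, Nppa, and the sex-linked genes Xist and Ddx3y, 1 point per library. Gja5, Tbx20 and Kcnj3, from the list of atrial markers and with higher means in AAV-ATF6N than in AAV-GFP, are not drawn. Myl7, Sln, Mybphl, Nr2f2 and Xist are lowest in the 2 AAV-ATF6N libraries (red), while Nppa and Ddx3y are highest there.

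Set against its ventricular counterpart within the same library, Myl7 was at 0.339% and 0.236% of Myl2 per kilobase in AAV-GFP, 0.892% and 0.762% with XBP1S and 0.0129% and 0.00932% with ATF6N. A ratio within a library does not depend on library size, and the 3 groups did not overlap. The mean log2 ratio differed from AAV-GFP by 1.54 in AAV-XBP1S, a ratio 2.92-fold higher, and by -4.69 in AAV-ATF6N, a ratio 25.7-fold lower. By an exact permutation test of 2 against 2 libraries, two-sided, each p was 0.333, the smallest this design allows, and 0.417 after Benjamini-Hochberg adjustment over the 15 comparisons of ratios, of which 12 did not overlap. No ratio can therefore be called. Of single tested genes, 35.9% to 56.9% did not overlap in a given comparison of groups, and such a share was not computed for other ratios. The 15 comparisons share libraries and genes, so the 12 are not independent. As a share of the reads of both genes, Myl7 reads were 0.0121% in AAV-ATF6N 1 (95% Wilson interval 0.00863% to 0.0169%) against 0.220% in AAV-GFP 2 (0.203% to 0.237%), the AAV-GFP library with the lower share. These intervals cover counting error only.

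Myl4, the atrial and fetal essential light chain, did not follow Myl7. It had 12.9 and 5.33 CPM in AAV-GFP, 17.5 and 11.2 with XBP1S and 15.8 and 16.8 with ATF6N. AAV-GFP 2 was the lowest library, and AAV-ATF6N lay above both AAV-GFP libraries. The log2 fold change was 0.65 (SE 0.43, edgeR adjusted p = 0.610) in AAV-XBP1S and 0.83 (SE 0.44, edgeR adjusted p = 0.400) in AAV-ATF6N, and neither passed the test. Relative to Myl3 within a library, Myl4 was at 0.0927% and 0.0632% per kilobase in AAV-GFP and between 0.212% and 0.244% in the other 4 libraries. The ratio was 2.80-fold higher in AAV-XBP1S and 3.11-fold higher in AAV-ATF6N, without overlap with AAV-GFP in either (exact permutation p = 0.333, adjusted 0.417).

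Myl2 and Myl3, the main ventricular light chains, were highest in AAV-GFP 1. Myl2, which is phosphorylated to raise the force of contraction, had 9404 and 4010 CPM in AAV-GFP, 5388 and 3425 with XBP1S and 3473 and 3523 with ATF6N. The AAV-XBP1S range overlapped AAV-GFP, while both AAV-ATF6N libraries lay below AAV-GFP. The log2 fold change was -0.61 (SE 0.41, edgeR adjusted p = 0.614) in AAV-XBP1S and -0.94 (SE 0.41, edgeR adjusted p = 0.378) in AAV-ATF6N. Myl3, the essential light chain of ventricle and slow skeletal muscle, had 14161 and 8573 CPM in AAV-GFP, 8211 and 5350 with XBP1S and 6907 and 6999 with ATF6N. Both treated groups lay below AAV-GFP without overlap, at log2 fold changes of -0.75 (SE 0.31, edgeR adjusted p = 0.425) and -0.71 (SE 0.31, edgeR adjusted p = 0.377). Neither gene passed the test.

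Myl1, the fast skeletal essential light chain, had 61.8 and 39.9 CPM in AAV-GFP, 64.2 and 44.3 with XBP1S and 34.1 and 33.7 with ATF6N. Its AAV-ATF6N libraries were the lowest of the 6, and the other groups overlapped. The log2 fold change was 0.09 (SE 0.29, edgeR adjusted p = 0.911) in AAV-XBP1S and -0.58 (SE 0.29, edgeR adjusted p = 0.392) in AAV-ATF6N. Relative to Myl3 it was at 0.353% and 0.376% per kilobase in AAV-GFP, 0.633% and 0.670% with XBP1S and 0.400% and 0.390% with ATF6N. The ratio was 1.79-fold higher in AAV-XBP1S than in AAV-GFP, a gap far wider than that between the libraries of either group (exact permutation p = 0.333, adjusted 0.417). Of the 50-base stretches of Myl1 transcript, 23.4% also occur in Mylf-ps, and how the counting treated reads that fit both is not given in the sources used here.

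Myh6, the alpha heavy chain, was the most counted of the members. It had 22991 and 41121 CPM in AAV-GFP, 26506 and 44246 with XBP1S and 66565 and 65071 with ATF6N. Libraries of AAV-GFP and AAV-XBP1S interleaved, and both AAV-ATF6N libraries lay above the other 4. Mean CPM was 2.05-fold higher in AAV-ATF6N than in AAV-GFP, but the log2 fold change of 1.04 (SE 0.34) did not pass the test (edgeR adjusted p = 0.313; 0.07074 in the authors' deposited table). In AAV-XBP1S it was 0.14 (SE 0.34, edgeR adjusted p = 0.885).

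Myh7, the beta heavy chain of the fetal and the stressed mouse ventricle, had 314 and 240 CPM in AAV-GFP, 214 and 331 with XBP1S and 570 and 557 with ATF6N. As for Myh6, both AAV-ATF6N libraries were above the other 4, and AAV-XBP1S overlapped AAV-GFP. The log2 fold change in AAV-ATF6N was 1.03 (SE 0.27) against AAV-GFP, which edgeR did not call (adjusted p = 0.228) and which passed in the authors' deposited table (1.033, adjusted p = 0.02813). Against AAV-XBP1S it was 1.05 (SE 0.27, edgeR adjusted p = 0.160), and in AAV-XBP1S against AAV-GFP -0.02 (SE 0.27, edgeR adjusted p = 0.982).

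The share of beta heavy chain in the treated libraries lay inside the range of the AAV-GFP pair. Myh7 was at 1.37% and 0.585% of Myh6 per kilobase in AAV-GFP, 0.812% and 0.752% with XBP1S and 0.860% and 0.859% with ATF6N. The AAV-GFP libraries were the highest and the lowest of the 6. The mean log2 ratio differed from AAV-GFP by -0.20 in AAV-XBP1S and by -0.06 in AAV-ATF6N (exact permutation p = 1 for both), and without AAV-GFP 1 these differences were 0.42 and 0.55. Myh6 and Myh7 are near copies: 22.6% of the 50-base stretches of Myh6 transcript occur in Myh7. Of the stretches of Myh7 transcript, 28.2% occur in other genes, most of them in Myh6. The split between Myh6 and Myh7 thus depends on how shared reads were counted. A given number of misplaced reads would weigh more on Myh7, the lower of the pair. In addition, the antisense RNA Mhrt, listed under D830015G02Rik, covers 463 bases of Myh7 exon. The kits do not mark strand, so reads there could be from either gene.

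Myh7b had the smallest p of the members in AAV-XBP1S against AAV-GFP. It was at 97.3 and 61.0 CPM in AAV-GFP, 30.9 and 31.6 with XBP1S and 48.6 and 47.7 with ATF6N. The 3 groups did not overlap, with AAV-XBP1S lowest. The mean was 2.53-fold lower in AAV-XBP1S than in AAV-GFP (log2 fold change -1.34, SE 0.26), with an edgeR adjusted p of 0.132. In the authors' deposited table the log2 fold change was -1.348 and passed, with an adjusted p of 0.03316. In AAV-ATF6N it was -0.72 (SE 0.26, edgeR adjusted p = 0.338). Relative to Myh6, Myh7b was at 0.418% and 0.146% per kilobase in AAV-GFP, 0.115% and 0.0705% with XBP1S and 0.0721% and 0.0723% with ATF6N, a ratio 2.74-fold and 3.42-fold lower than in AAV-GFP (exact permutation p = 0.333, adjusted 0.417).

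**Figure D3:**
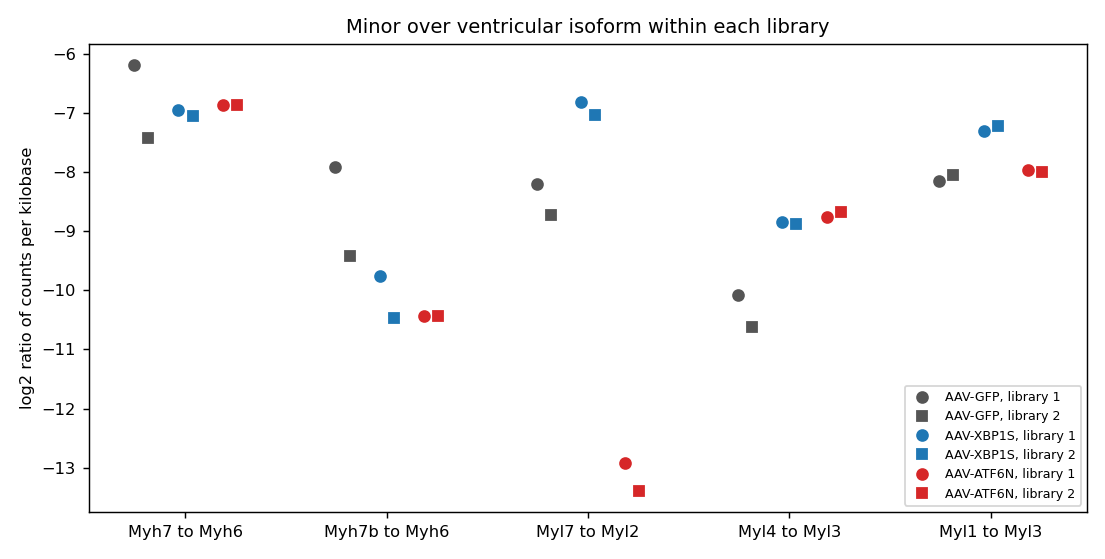
Log2 ratio of counts per kilobase of a minor isoform over its ventricular counterpart, 1 point per library, for 5 pairs of genes. Myl7 to Myl2 drops in AAV-ATF6N (red), Myl4 to Myl3 is higher in all 4 treated libraries than in AAV-GFP (grey), and Myh7 to Myh6 stays between the AAV-GFP libraries.

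Over the 8 members, AAV-XBP1S against AAV-GFP called 0 in edgeR, where 0.315% of all tested genes were called (0.178% higher, 0.137% lower). At an unadjusted p under 0.05 in edgeR were 1689 of the 14587 tested genes, Myh7b and Myl3 among them. DESeq2 called 1 member, Myh7b, and 484 genes in all, of 18423 with a fold change. AAV-ATF6N against AAV-GFP called 1 of 8, Myl7, where 0.514% of genes were called (0.35% higher, 0.165% lower), and AAV-ATF6N against AAV-XBP1S called 1 of 8, Myl7 again, where 0.226% were (0.171% higher, 0.0548% lower). These comparisons share libraries and are not independent. Groups did not overlap for 2 of 8 members in AAV-XBP1S against AAV-GFP (35.9% of all genes), 8 of 8 in AAV-ATF6N against AAV-GFP (54.5%) and 5 of 8 in AAV-ATF6N against AAV-XBP1S (56.9%). The median log2 fold change of the members was 0.04, -0.65 and 0.11 in that order, beside -0.01, -0.02 and -0.01 over all tested genes. In AAV-ATF6N against AAV-GFP the 3 members above 0 were Myh6, Myh7 and Myl4.

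Exon length moved with part of this pattern. Myl2 deviated from its own mean by 1.06 on the log2 scale in AAV-GFP 1 and Myl3 by 0.83, beside 0.758 for the median gene of under 1 kb, and Myh6 by -0.84, beside -0.316 for the median gene of 5 kb and over. Other members did not follow these medians in AAV-GFP 1: the long Myh7b was at 0.997 and the short Myl4 at 0.06. Myh7 was at -0.14. With a trend on exon length removed from each library, the log2 fold change in AAV-ATF6N against AAV-GFP was 0.72 for Myh6, 0.63 for Myh7, -0.26 for Myl2, -0.19 for Myl3 and -0.14 for Myl1, all closer to 0, while Myh7b moved away from 0, from -0.72 to -1.13 (edgeR adjusted p = 0.186). Myl7 was at -4.93 (edgeR adjusted p = 0.0029). Myl4 was at 1.43 and passed the test (edgeR adjusted p = 0.0339), and in AAV-XBP1S Myl3 was at -0.53 and passed (edgeR adjusted p = 0.0332). Myh7b was at -1.53 in AAV-XBP1S (edgeR adjusted p = 0.0856).

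**Figure D4:**
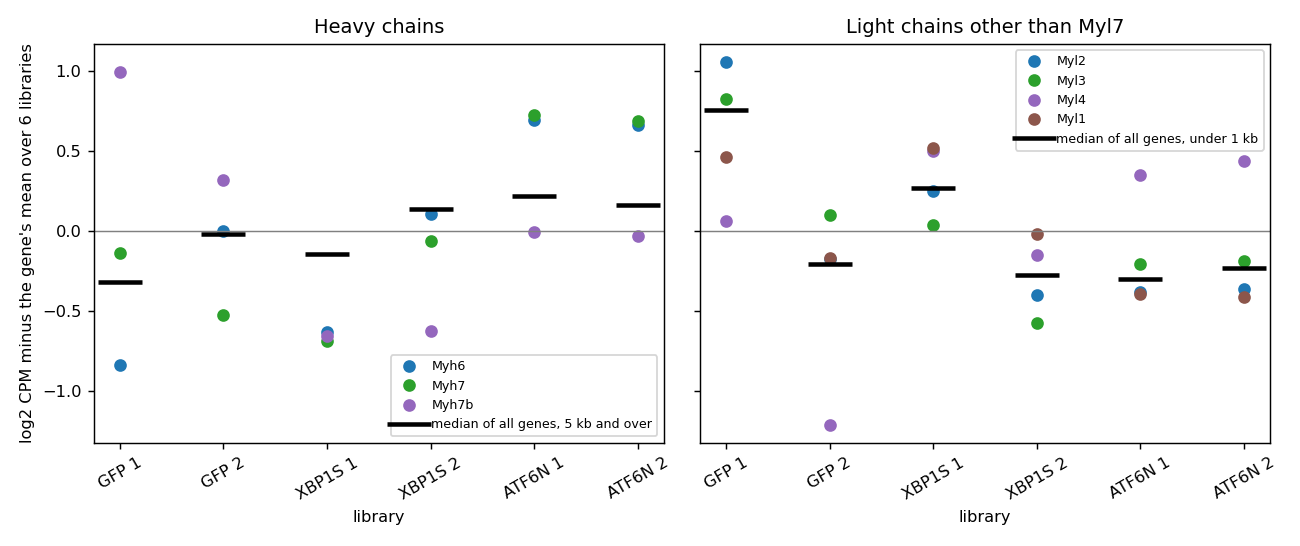
Log2 CPM minus the gene's own mean over the 6 libraries, for the heavy chains (left) and the light chains other than Myl7 (right); black bars are the medians of all tested genes of 5 kb and over (left) and under 1 kb (right). In AAV-GFP 1 Myl2 (1.06) and Myl3 (0.83) lie near the bar of short genes (0.758), while Myl4 (0.06) lies below it. Myh7b (0.997) lies above the bar of long genes (-0.316) there. Myl1, at 1110 bases, is just over 1 kb.

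**Figure D5:**
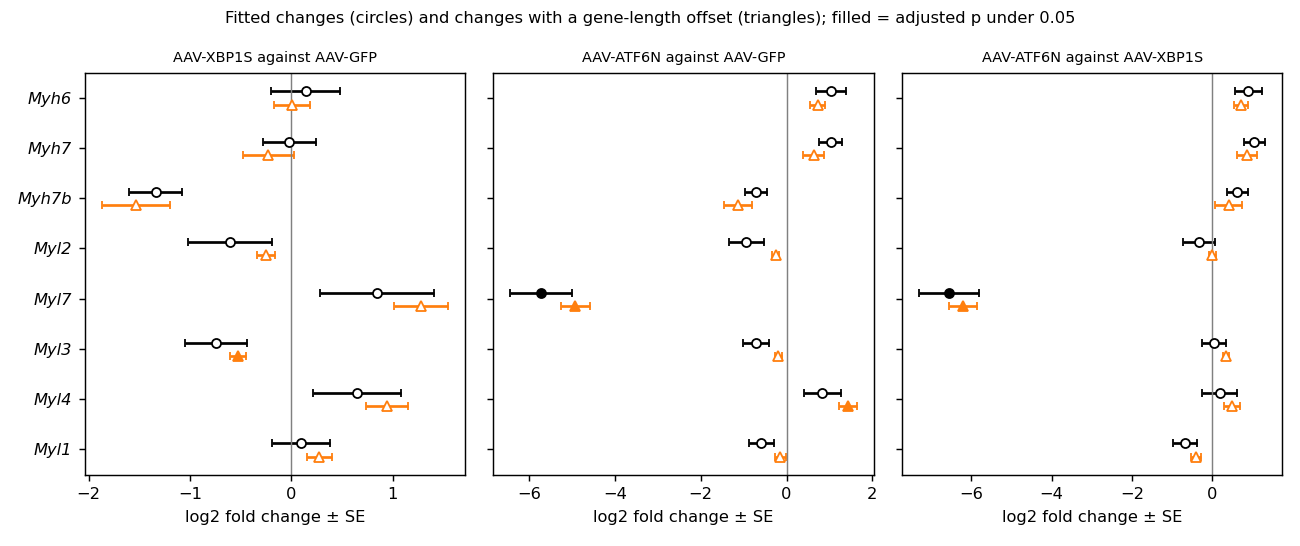
Log2 fold change with its standard error for the 8 members in the 3 comparisons, from edgeR as fitted (black circles) and with a per-library trend on exon length removed (orange triangles); filled symbols have an adjusted p under 0.05. Myl7 is filled in both comparisons of AAV-ATF6N under both fits; with the trend removed Myl3 (AAV-XBP1S) and Myl4 (AAV-ATF6N) against AAV-GFP are filled as well.

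The partners of myosin gave little that passed the test. Among the other 11 myosin heavy chains, 6 were tested and 0 were called in the 3 comparisons (medians 0.58, 0.66 and 0.64, for XBP1S over GFP, ATF6N over GFP and ATF6N over XBP1S in this order). The nonmuscle Myh14 was closest to a call, at 1.21 in AAV-ATF6N against AAV-XBP1S (edgeR adjusted p = 0.134), and nonmuscle Myh10 was at 0.80 in AAV-ATF6N against AAV-GFP (edgeR adjusted p = 0.229). Embryonic Myh3 and the adult skeletal Myh1, Myh2 and Myh4 stayed under the filter, at no more than 0.184 CPM. Of the other 7 light chains, 6 were tested and 0 called (medians 0.21, -0.54 and -0.93). Of 10 light chain kinase and phosphatase genes, 9 were tested and 0 called (medians -0.22, 0.03 and 0.36). The nearest to a call was Ppp1r12b, a subunit of the myosin phosphatase, at 0.86 in AAV-ATF6N against AAV-XBP1S (edgeR adjusted p = 0.212).

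Of 10 thick filament partners, 9 were tested and 0 called (medians -0.06, 0.53 and 0.47), with Mybphl at the smallest p. All 11 genes of myosin folding and turnover were tested and 0 called (medians -0.25, -0.13 and 0.32). Trim63, the ubiquitin ligase MuRF1 that marks myosin for breakdown, was at -0.61 in AAV-XBP1S (edgeR adjusted p = 0.284), and Trim54 at -0.75 (edgeR adjusted p = 0.284). Of 30 regulators of isoform choice, 28 were tested and 0 called (medians -0.28, -0.17 and 0.26). Among them Thra, the thyroid hormone receptor through which the hormone turns Myh6 on, was at -0.89 in AAV-ATF6N (edgeR adjusted p = 0.332), and Srf at -0.67 in AAV-XBP1S (edgeR adjusted p = 0.268).

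Of 11 other fetal and stress genes tested, 2 passed in at least 1 comparison. Tnni1, the slow skeletal and fetal cardiac troponin I, rose in AAV-XBP1S (log2 fold change 5.70, edgeR adjusted p = 0.00265), from 1.93 and 1.80 CPM in AAV-GFP to 116 and 78.4. In AAV-ATF6N it rose to 248 and 266 CPM (log2 fold change 7.11, edgeR adjusted p = 0.0013). Acta1, skeletal alpha actin, had 127 and 114 CPM in AAV-GFP, 202 and 170 with XBP1S and 622 and 637 with ATF6N, and rose against AAV-GFP (log2 fold change 2.39, edgeR adjusted p = 0.00988) and against AAV-XBP1S (1.76, edgeR adjusted p = 0.0399). Tnni1 passed without any given library, with edgeR adjusted p-values of at most 0.0302. Acta1 kept its direction but not its call without AAV-ATF6N 1 (edgeR adjusted p = 0.119 against AAV-GFP), AAV-ATF6N 2 (0.111) or AAV-XBP1S 1 (0.0524), and was at the threshold without AAV-XBP1S 2. Against AAV-XBP1S its edgeR adjusted p was 0.322 to 0.469 without any given library of these groups. The remaining genes of that list did not pass in any comparison. Of 10 skeletal muscle markers 7 were tested, and Casq1, the skeletal calsequestrin, was the single gene called: it rose in AAV-ATF6N against AAV-GFP (2.66, edgeR adjusted p = 0.00713) and against AAV-XBP1S (2.86, edgeR adjusted p = 0.00731). The former call was lost without AAV-XBP1S 1 (edgeR adjusted p = 0.0511), AAV-ATF6N 1 (0.0829) or AAV-ATF6N 2 (0.0943), and the latter without any given library of the groups compared (0.0997 to 0.22).

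Markers of cardiomyocytes and of other cells give the background of these libraries. The 10 cardiomyocyte markers summed to between 64860 and 109300 CPM, and 0 were called in the 3 comparisons. Endothelial markers summed to 1266 to 1436 CPM in AAV-GFP, 1699 to 1865 in AAV-XBP1S and 778 to 828 in AAV-ATF6N; 0 of 10 were called. Fibroblast markers summed to 493 to 618 CPM in AAV-GFP, 844 to 986 in AAV-XBP1S and 813 to 851 in AAV-ATF6N. Over the 6 libraries, smooth muscle and pericyte markers summed to 965 to 1334 CPM and leukocyte markers to 48.8 to 78.5. Of these 3 lists 0 genes were called in any comparison, among 10, 10 and 9 tested. Of 2 tested erythroid markers, Alas2 fell in AAV-ATF6N against AAV-GFP (log2 fold change -1.75, edgeR adjusted p = 0.047), a call lost without any given AAV-XBP1S or AAV-ATF6N library (edgeR adjusted p = 0.141 to 0.593). In AAV-XBP1S against AAV-GFP all 10 cardiomyocyte markers were below 0 (median -0.55), and all 10 endothelial (median 0.49), all 10 fibroblast (0.64) and all 10 smooth muscle and pericyte markers (0.51) were above 0. In AAV-ATF6N against AAV-GFP 7 of 10 cardiomyocyte markers (median -0.30) and 9 of 10 endothelial markers (-0.67) were below 0, and 7 of 10 fibroblast (0.39) and 6 of 10 smooth muscle and pericyte markers (0.30) were above. The part of these cells in the values of the myosin genes was not tested.

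By the same measure of likeness as for Myl7, the genes nearest to each other member were Slc16a1 for Myh6 (r = 0.9986), Eif2c2 for Myh7 (0.9928), Cryz for Myh7b (0.9952), Ifi35 for Myl1 (0.9986), Snrpd1 for Myl2 (0.9999), Sod2 for Myl3 (0.9988) and Galk2 for Myl4 (0.991). The next in line were Prkag2 and Trp53bp1 for Myh6, Lama2 and Appl1 for Myh7, Rhot2 and Ppfibp2 for Myh7b, Slc50a1 and Arhgdia for Myl1, Gtf2a2 and Rps15 for Myl2, Phb and Psmc3 for Myl3, and Ckap4 and Tmem41a for Myl4. These are correlations over 6 libraries that share the length and depth differences above, and they describe the pattern only.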

How the data were processed

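The 6 libraries were made from polyadenylated RNA of cardiomyocytes purified by sorting. Per the labels, RNA was taken up with a PureLink micro kit, cDNA made with SMART-Seq v4 (a description names SMART-Seq2) and libraries with Nextera XT. The authors deposited whole-number read counts per gene, for which the submitters' processing notes name STAR, featureCounts and mm10. Versions, annotation and the handling of strand and of shared reads are not given in those notes or the labels. Also deposited by the authors were 2 tables of comparisons with AAV-GFP. Per the file headers these hold a mean normalized signal, a log2 fold change, its error and a test statistic (a score), and p-values with their adjusted values. The tools named for the samples also include DESeq and DESeq2. The authors' adjusted p-values do not come from the edgeR fit used here, so the method differs wherever both are given.

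From the counts, edgeR 4.0.16 (R 4.3.3) with filterByExpr (count minimum 10), TMM and the group as the only term was fitted to all 6 libraries, which left 3 residual degrees of freedom; tests were two-sided. The model code was tested on simulated data, on which the share of false calls came out above the nominal level. RPKM are CPM per kilobase of the exon length in the table, and log2 CPM had a prior count of 2. Ratios of members were compared by exact permutation. Alternatives were DESeq2 1.42.0, its size factors in edgeR, no filter, each library left out, only the 4 libraries compared, a trend on exon length removed, raw counts in ratios, and a replicate block. Summing the AAV-ATF6N libraries to 1 was added after the data were seen. Positions of the members came from the exon coordinates deposited with the counts, and 0 per-sample columns went unused. GENCODE M21 gave the transcripts used for intron numbers and shared stretches. Named genes were the 8 members and, for each member, the 3 genes of highest Pearson correlation. From the 16 lists they were called genes, up to 3 of smallest p per list, and some others such as Gja5 and Bmp10. The members and lists were chosen with earlier results of these data known. The lists cover kinases, partners, folding and turnover, regulators, and ventricular, atrial, fetal and cell type markers. They are not printed in full, and the results name only some of their genes.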

Additional observations from a re-analysis of the deposited data

How the results depend on the processing

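With 2 libraries a group the number of calls depends strongly on the fit. Genes with a fold change numbered 14587 in the main fit, with the exon length trend removed and with the replicate block. They numbered 18423 with DESeq2 and with no filter, 14118 to 14343 with only the 4 libraries compared and 15301 with the AAV-ATF6N libraries summed. With a library left out they numbered 15078 to 15274. Taking XBP1S over GFP (46 genes called), ATF6N over GFP (75) and ATF6N over XBP1S (33) in this order, calls numbered 484, 573 and 803 with DESeq2, 233, 348 and 458 with no filter on low counts, 13, 8 and 663 with only the 4 libraries compared, 289, 224 and 606 with the exon length trend removed, and 17, 7 and 4 with the AAV-ATF6N libraries summed to 1. Leaving out each library gave 2 to 322, 6 to 3055 and 1 to 717. The highest, 3055, came without AAV-GFP 2, and the lowest came without an AAV-XBP1S library (2 and 1) and without AAV-ATF6N 1 (6).

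Of the 8 members, 0, 1 and 1 were called; with DESeq2 1, 2 and 2 were, adding Myh7b in AAV-XBP1S and Myh7 in AAV-ATF6N. With no filter 1, 1 and 2 were called (Myh7b and Myh7 added), with the length trend removed 1, 2 and 1 (Myl3 and Myl4 added), with only the 4 libraries compared 0, 0 and 1, and with the AAV-ATF6N libraries summed 0, 0 and 0. Leaving out each library gave 0 to 1, 0 to 5 and 0 to 1 members; 5 came without AAV-GFP 2, where Myh6, Myh7b, Myl2 and Myl3 joined Myl7. For Myl7, the log2 fold change ran from -6.32 to -4.59 against AAV-GFP over the alternatives and from -6.94 to -6.10 against AAV-XBP1S, always below 0. Of the other genes called in the lists, Tnni1 was called against AAV-GFP under every alternative run, and Nppa, Acta1, Casq1 and Alas2 were lost where the edgeR fit had fewer AAV-ATF6N or AAV-XBP1S libraries, apart from Casq1 against AAV-GFP without AAV-XBP1S 2 (edgeR adjusted p = 0.0494). The cause of these changes was not tested.

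Libraries with the same number moved together in part between AAV-GFP and AAV-XBP1S (correlation of deviations 0.379). They did not between AAV-ATF6N and either other group (-0.0402 and -0.048). Genes of under 1 kb were high in both AAV-GFP 1 (median deviation 0.758) and AAV-XBP1S 1 (0.27). What these libraries share was not tested. With the replicate block, 165, 237 and 356 genes and 1, 2 and 1 members were called (Myh7b and Myh6 added).

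The sign of some small log2 fold changes turned when a library was left out. In AAV-XBP1S against AAV-GFP, Myh6 ran from -0.27 to 0.66 (-0.22 without AAV-GFP 1), Myh7 from -0.36 to 0.31 (0.18 without AAV-GFP 1), Myl2 from -1.06 to 0.13, the latter without AAV-GFP 1, and Myl1 from -0.16 to 0.44 (-0.15 without AAV-XBP1S 1). In AAV-ATF6N against AAV-XBP1S, Myl3 ran from -0.24 to 0.34 and Myl4 from -0.11 to 0.50, below 0 without AAV-XBP1S 2. Leaving out each library moved the log2 ratio of Myh7 to Myh6 between -0.81 and 0.42 in AAV-XBP1S against AAV-GFP and between -0.67 and 0.55 in AAV-ATF6N against AAV-GFP, both turning above 0 without AAV-GFP 1. The ratio of Myh7b to Myh6 in AAV-ATF6N against AAV-XBP1S ran from -0.67 to 0.035, above 0 without AAV-XBP1S 1. The other ratios kept their sign in the alternatives run. Counts were lowest for Myl7 in AAV-ATF6N, with 34 and 20 reads; the other members had at least 380 reads in each library.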

Other observations

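Reads on the row of Mir208b, the hairpin inside Myh7, numbered 391 and 220 in AAV-GFP, 85 and 89 with XBP1S and 155 and 125 with ATF6N. Both treated groups lay below AAV-GFP, while Myh7 itself was higher in AAV-ATF6N. The log2 fold change was -1.82 (SE 0.33, edgeR adjusted p = 0.110) in AAV-XBP1S and -0.88 (SE 0.32, edgeR adjusted p = 0.342) in AAV-ATF6N, and neither passed the test. These are reads of polyadenylated or unspliced RNA over an intron, not of the mature microRNA.

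D830015G02Rik, the row of the antisense RNA Mhrt, which is known to oppose pathological growth of the heart, had 67.7 and 25.6 CPM in AAV-GFP, 18.9 and 13.3 with XBP1S and 19.9 and 17.6 with ATF6N. AAV-GFP was the highest group without overlap, though AAV-GFP 1 was far above AAV-GFP 2. The log2 fold change was -1.54 (SE 0.45, edgeR adjusted p = 0.291) in AAV-XBP1S and -1.32 (SE 0.45, edgeR adjusted p = 0.321) in AAV-ATF6N. Mir208a, inside Myh6, had 12 and 5 reads in AAV-GFP, 0 and 1 with XBP1S and 7 and 10 with ATF6N. Mir499, inside Myh7b, had 0 reads in all 6 libraries.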
